A study of Mus musculus with 6 samples.

Results

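The mitosis and cytokinesis genes are 40 genes listed by name, chosen for their known roles from entry into M phase to the separation of daughter cells. Of the 40 genes, 36 had a probe on the mouse Illumina bead arrays by the platform annotation, out of 15967 genes with a probe in all, and 28 were detected well enough to be tested. Ccnb1, Cenpf, Kif20a and Mki67 were matched to no probe and were not analysed here. The samples were C57BL/6 bone marrow cells, depleted of lineage-marked cells. After a night with thrombopoietin and stem cell factor they were sorted on CD41 and c-kit to obtain megakaryocyte progenitors, which then grew for 3 days with thrombopoietin alone. Wild-type cells carried intact Srf (SRF wt, 3 arrays). Knockout cells had lost Srf (SRF ko, 3 arrays) through a Cre recombinase that the Pf4 promoter drives, which is active in the megakaryocyte lineage, so that deletion is limited to cells that have switched that promoter on. The sources used here give neither the age of the mice nor the Cre status of the wild-type. The product of Srf, serum response factor, regulates genes of the actin cytoskeleton. The labels number the replicates without tying them to separate animals or cultures, so each p-value reflects only how far these samples spread, which may be technical.

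In an ordinary cell cycle, cyclin-dependent kinase 1 bound to A- and B-type cyclins drives entry into mitosis, the spindle checkpoint holds the chromosomes until all are attached, and the anaphase-promoting complex then destroys cyclin B and securin. The central spindle and an actomyosin ring afterwards divide the cytoplasm. Megakaryocytes depart from this scheme as they mature: they enter mitosis repeatedly but do not complete cytokinesis, a process called endomitosis, and become polyploid. The RNA was taken from whole cultures, in which fewer dividing cells and less RNA of a gene per dividing cell cannot be told apart.

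Many genes of the list are known to be switched on together in the G2 and M phases. This works through CCAAT boxes bound by the factor NF-Y and through the cell cycle genes homology region (CHR). The CHR is a short element bound by complexes that include MYBL2 and FOXM1. Promoter windows of 300 bases, from 250 before to 50 after the gene's start, were available in RefSeq's mouse assembly GRCm38.p6 for 34 of the 40 genes. A CHR (TTTGAA or TTCGAA, both strands searched) was found in 27 of the 34 windows (79.4%), against 19.4% of the windows of 27025 genes. A CCAAT box (CCAAT, both strands) was found in 26 of 34 (76.5%) against 37.9%, and both elements together in 24 of 34 (70.6%) against 7.70%. In those 24 windows a CCAAT box lay before a CHR in the direction of transcription, at a gap of at most 40 bases in 19 of them (55.9% of the 34, against 1.69% of all windows). Of the 37 CHR elements, 26 began between -60 and 50 relative to the start (70.3%, against 27.5% for all genes). The binding site of SRF itself, the CArG box, matched none of the 34 windows and 1.57% of all windows. These matches are letters in a window and do not show binding.

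The windows of 5 genes are shown because they belong to genes whose levels are described below: Kif23 and Nusap1, whose groups did not overlap, Plk1, and Cdk1 and Top2a, which lay close to no difference. Each is printed from 5′ to 3′, with capitals on CCAAT boxes (ATTGG where they lie on the other strand) and on CHR elements (TTCAAA where a TTTGAA lies on the other strand).
Kif23 (chr9:61946750-61947049, minus strand): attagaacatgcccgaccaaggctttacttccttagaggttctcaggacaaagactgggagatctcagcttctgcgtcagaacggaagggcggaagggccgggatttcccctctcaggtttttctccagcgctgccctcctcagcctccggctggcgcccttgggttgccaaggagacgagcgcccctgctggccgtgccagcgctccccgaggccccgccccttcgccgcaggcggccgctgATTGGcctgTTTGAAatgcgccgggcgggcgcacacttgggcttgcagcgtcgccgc
Plk1 (chr7:122159185-122159484, plus strand): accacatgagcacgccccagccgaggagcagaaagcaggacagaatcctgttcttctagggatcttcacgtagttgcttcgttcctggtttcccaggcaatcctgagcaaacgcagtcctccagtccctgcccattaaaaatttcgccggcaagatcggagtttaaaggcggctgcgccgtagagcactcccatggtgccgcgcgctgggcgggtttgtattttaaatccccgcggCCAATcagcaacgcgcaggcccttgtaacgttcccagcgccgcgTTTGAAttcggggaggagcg
Cdk1 (chr10:69352863-69353162, minus strand): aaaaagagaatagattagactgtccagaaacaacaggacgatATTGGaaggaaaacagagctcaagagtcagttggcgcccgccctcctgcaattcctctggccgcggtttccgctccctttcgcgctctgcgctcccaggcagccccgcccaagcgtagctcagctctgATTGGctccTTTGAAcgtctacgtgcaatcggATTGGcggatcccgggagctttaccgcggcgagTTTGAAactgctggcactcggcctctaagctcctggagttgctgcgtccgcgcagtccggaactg
Top2a (chr11:99024140-99024439, minus strand): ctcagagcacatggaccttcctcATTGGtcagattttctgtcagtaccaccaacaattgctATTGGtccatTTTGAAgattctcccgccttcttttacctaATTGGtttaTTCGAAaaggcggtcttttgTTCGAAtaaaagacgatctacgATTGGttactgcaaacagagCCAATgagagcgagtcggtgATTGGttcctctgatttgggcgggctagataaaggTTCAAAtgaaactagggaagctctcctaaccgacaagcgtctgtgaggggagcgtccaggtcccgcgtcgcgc
Nusap1 (chr2:119618048-119618347, plus strand): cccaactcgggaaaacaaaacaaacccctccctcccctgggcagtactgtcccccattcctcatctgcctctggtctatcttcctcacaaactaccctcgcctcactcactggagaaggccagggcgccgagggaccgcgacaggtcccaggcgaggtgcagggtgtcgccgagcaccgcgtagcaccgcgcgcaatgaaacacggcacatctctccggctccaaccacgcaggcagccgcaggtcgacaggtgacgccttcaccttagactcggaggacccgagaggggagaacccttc
The Kif23 and Plk1 windows held 1 CCAAT box and 1 CHR each, that of Cdk1 held 3 and 2, and that of Top2a held 6 and 4. The Nusap1 window held neither. Tested genes with both elements in the window had a median difference between genotypes of -0.17 on the log2 scale (16 genes, from -0.59 to 0.31), and tested genes without both had -0.17 as well (7 genes, from -0.38 to 0.16).

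Srf fell in the knockout, from log2 intensities of 12.31, 11.89 and 11.98 in wild-type replicates 1 to 3 to 7.35, 7.56 and 7.20 in knockout replicates 1 to 3 (limma adjusted p = 5.4e-05). Where the Srf probe lies relative to the deleted part was not checked. Log2 intensities here are after background correction and quantile normalization, so a difference of 1 is a doubling. Between 9801 and 10364 probes were detected per array. All 10 megakaryocyte markers with a probe were detected on every array, and none passed the test. By mean 8 of the 10 were higher in the knockout (median 0.29), among them Gp1bb at 0.77 and Itga2b, which encodes CD41, at 0.47, while the platelet chemokine gene Ppbp stood at -0.82 (adjusted p = 0.25). The other blood lineages varied within the genotypes. Wild-type arrays had a summed level of 13 granulocyte markers between 2010 and 57670 normalized intensity units, and knockout arrays between 1725 and 29721, with 8 to 12 of the 13 detected. Wild-type replicates 2 and 3 and knockout replicate 1 were the high ones, and Mmp8 was at background on all 6 arrays. For 14 mast cell and basophil markers, 3 to 8 of them detected, the sum lay between 6903 and 24917 on wild-type arrays and between 6873 and 7882 on knockout arrays. Wild-type replicates 2 and 3 were high, and Mcpt4, Mcpt1, Cma1, Tpsab1, Tpsb2 and Il4 were at background on all 6 arrays. A model term for the mean of the 4 tested mast cell and basophil markers was tried after seeing the data, and its results are given below. That mean was 12.11 and 12.34 on wild-type replicates 2 and 3 and 8.67 to 9.49 on the other arrays. The term is therefore close to a contrast of those wild-type arrays with the rest, and leaving both out is not a separate check. The part of the other blood lineages in the results was not otherwise tested.

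None of the 28 tested mitosis and cytokinesis genes passed the test between genotypes. Over all 9403 tested probes 0.160% were called by limma at an adjusted p under 0.05, 0.138% lower and 0.0213% higher, so a count of 0 among 28 is near that background. By mean, 18 of the 28 were lower in the knockout (64.3%, against 48.7% of all tested probes) and 10 were higher. The median difference was -0.15, against 0.01 over all tested probes. Counted at 1 probe per gene, as in the list, 3500 of all 6864 tested genes were lower, with a median of -0.0072. With scaling to the 75th percentile in place of quantile normalization the split of the list was 22 lower and 6 higher. At an unadjusted p under 0.05 there was 1 gene, Kif23 (3.57%, against 13.7% of all tested probes, 5.97% lower in the knockout). On the brightest probe of each gene the arrays of the genotypes did not overlap for 2 genes, Kif23 and Nusap1 (7.14%, against 18.9% of all tested probes, 9.08% lower and 9.77% higher). Both were lower in the knockout. The 95% intervals of the differences lay within 1 log2 unit of 0 for 27 of the 28 genes (84.3% of all tested probes), Ube2c being the exception, and in the median they reached 0.41 to either side of the estimate. Differences much smaller than that were not resolved by 3 arrays per genotype.

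**Figure D1:**
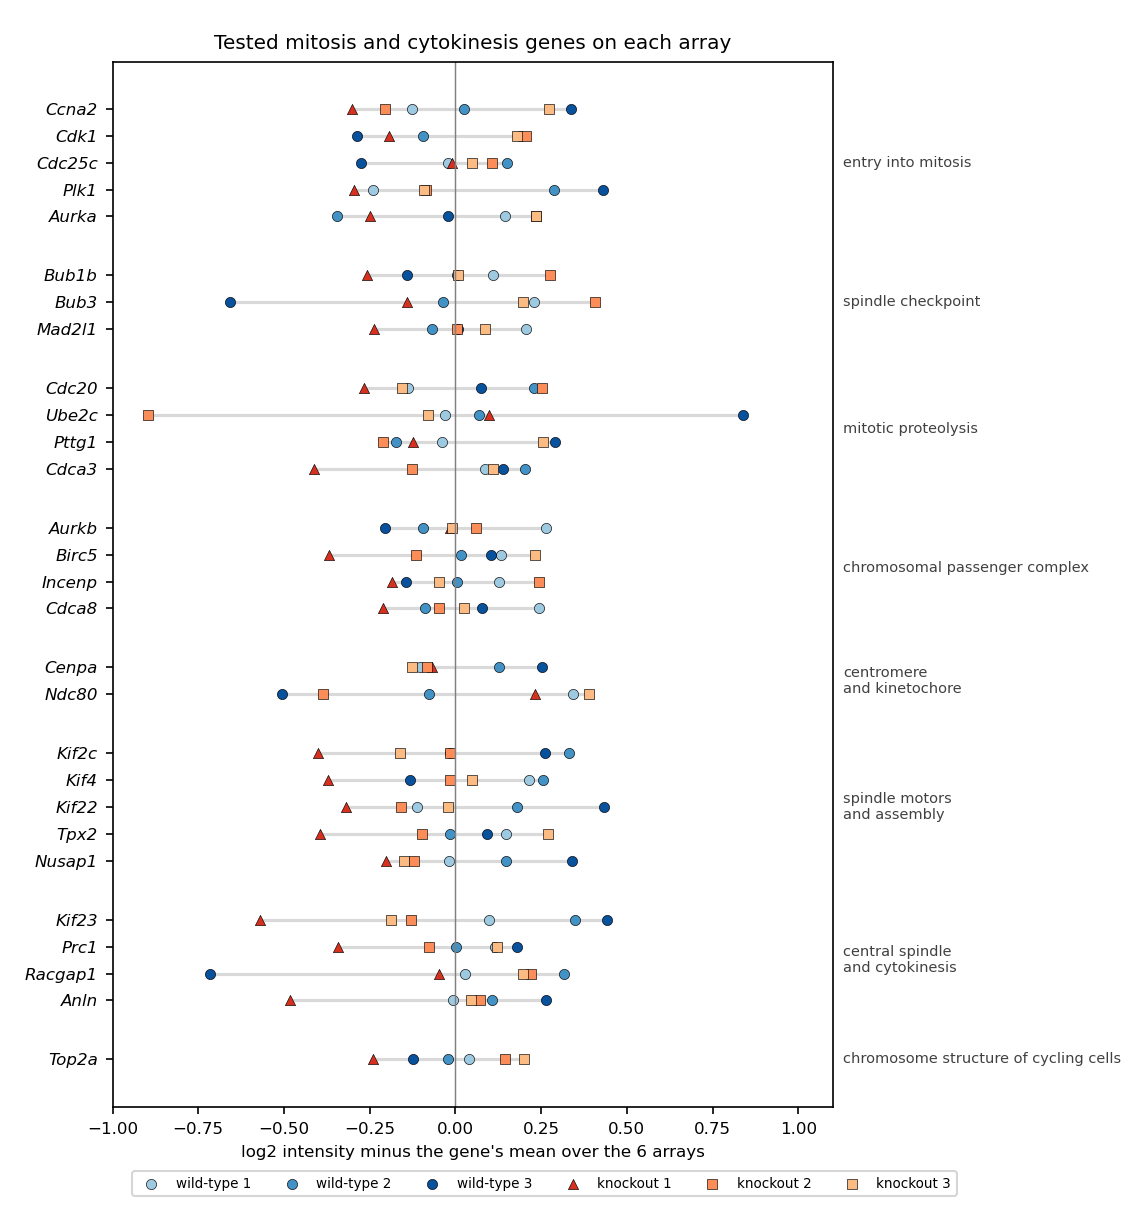
Log2 intensity of each of the 28 tested genes on each of the 6 arrays, drawn as the deviation from the gene's own mean over the arrays and grouped by role; blue circles are wild-type, the red triangle is knockout replicate 1 and orange squares are knockout replicates 2 and 3. Knockout replicate 1 was the lowest array for 18 of the 28 genes, and the genotypes were apart only for Kif23 and Nusap1.

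The genes that drive entry into mitosis lay on both sides of no difference. Plk1, the polo-like kinase that acts from centrosome maturation to cytokinesis, was measured at 12.04, 12.57 and 12.72 in the wild-type and at 11.99, 12.20 and 12.19 in the knockout. Wild-type replicate 1 was as low as the knockout arrays, and the groups overlapped. The difference of -0.32 (SE 0.20, adjusted p = 0.47) did not pass. Cdk1, the kinase at the centre of mitotic entry, lay at 12.34, 12.06 and 11.87 in the wild-type and at 11.96, 12.36 and 12.33 in the knockout, a difference of 0.13 (95% interval -0.30 to 0.55). Aurka, which matures the spindle poles, differed by 0.15 (-0.31 to 0.61), Cdc25c, the phosphatase that activates Cdk1, by 0.10 (-0.26 to 0.45), and the cyclin gene Ccna2 by -0.16 (-0.63 to 0.32). A second tested probe of Cdc25c gave 0.03. Ccnb2, the one B-type cyclin with a probe, was not well above background on any array (log2 4.92 to 5.53), so no difference was tested for it. The median over the 5 tested genes of this group was 0.10, and -0.016 without wild-type replicate 3.

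In the spindle checkpoint, which delays anaphase until kinetochores are attached, 3 genes were tested and none passed. Bub1b, the BubR1 protein of the inhibitory complex, lay at 10.92, 10.82 and 10.67 in the wild-type and at 10.56, 11.09 and 10.82 in the knockout. The knockout arrays enclosed the wild-type arrays. Its difference was 0.02 (95% interval -0.39 to 0.42). Bub3, the partner that docks both Bub1 and BubR1, was measured at 9.88, 9.61 and 8.99 in the wild-type and 9.51, 10.06 and 9.85 in the knockout. Wild-type replicate 3 stood apart below the other 5 arrays, and the difference of 0.31 (SE 0.25, adjusted p = 0.58) did not pass. Mad2l1, which binds Cdc20 directly, differed by -0.10 (-0.45 to 0.26). The checkpoint kinases Ttk and Bub1 were not well above background, Bub1 on no array and Ttk on 1 of 6.

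All 4 genes of mitotic proteolysis were lower in the knockout by mean, none past the test, with a median of -0.20. Without knockout replicate 1 that median was -0.08. With array weights, or with either wild-type replicate 3 or knockout replicate 2 left out, 3 of the 4 were lower. Only 2 of the 4 were lower with wild-type replicates 2 and 3 both left out (median -0.11), and 2 with the mast cell marker term (median -0.10). Ube2c, the ubiquitin-conjugating enzyme of the anaphase-promoting complex, lay at 7.22, 7.32 and 8.09 in the wild-type and at 7.35, 6.35 and 7.17 in the knockout. Wild-type replicate 3 was highest and knockout replicate 2 lowest, while the other 4 arrays lay close together. The difference was -0.59 (SE 0.32, adjusted p = 0.43). It was -0.31 with wild-type replicate 3 left out, -0.28 with knockout replicate 2 left out, and -0.19 on the authors' processed values. Cdca3, a substrate of that complex that takes part in destroying the kinase Wee1, lay at 12.90, 13.02 and 12.95 in the wild-type and at 12.40, 12.69 and 12.93 in the knockout. Knockout replicate 3 reached the wild-type range, and the difference was -0.29 (SE 0.17, adjusted p = 0.45). Cdc20, the activator of the complex, differed by -0.11 (-0.54 to 0.32), with its other 2 tested probes at 0.02 and -0.05, and Pttg1, securin, by -0.05 (-0.49 to 0.39).

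The chromosomal passenger complex corrects faulty attachments and later moves to the central spindle. Birc5, its survivin subunit, was measured at 12.48, 12.37 and 12.45 in the wild-type and 11.98, 12.24 and 12.58 in the knockout. The knockout spanned the wild-type range, and the difference was -0.17 (95% interval -0.58 to 0.24). On the other 2 Birc5 probes every knockout array was below every wild-type array, with differences of -0.25 and -0.40, the latter with an unadjusted p of 0.038 and an adjusted p of 0.35. Cdca8, borealin, differed by -0.16 (-0.50 to 0.19), and the kinase Aurkb by 0.02 (-0.35 to 0.39). Incenp, the scaffold of the complex, differed by 0.01 (-0.37 to 0.38). The median of the 4 genes was -0.08, and 0.0053 without knockout replicate 1. All 4 were lower by mean with 75th percentile scaling. With array weights 1 was lower and 3 were higher (median 0.04).

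At the centromere and kinetochore 2 genes were tested. Cenpa, the histone H3 variant that marks centromeres, lay at 13.31, 13.54 and 13.67 in the wild-type and at 13.35, 13.33 and 13.29 in the knockout. The knockout arrays lay close together, and wild-type replicate 1 fell among them. The difference was -0.19 (SE 0.14, adjusted p = 0.56). Ndc80, the outer kinetochore protein that grips microtubules, differed by 0.16 (-0.48 to 0.80). Its partner Nuf2 and the kinesin Cenpe were not well above background on any array.

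The spindle motors and assembly factors were the group with the lowest median, -0.31, and all 5 tested genes were lower in the knockout by mean, none past the test. Kif2c, a kinesin that depolymerizes microtubules at centromeres, lay at 10.01, 10.36 and 10.29 in the wild-type and at 9.63, 10.02 and 9.87 in the knockout. Wild-type replicate 1 was level with knockout replicate 2, the highest of its group, and the difference was -0.38 (SE 0.17, adjusted p = 0.36). Nusap1, which bundles spindle microtubules near chromosomes, lay at 11.66, 11.82 and 12.02 in the wild-type and at 11.47, 11.56 and 11.52 in the knockout. The groups did not overlap, and the difference was -0.31 (SE 0.14, adjusted p = 0.38). Kif22, a chromosome-arm kinesin, lay at 10.81, 11.10 and 11.36 against 10.61, 10.77 and 10.90, a difference of -0.33 (SE 0.18, adjusted p = 0.42). Kif4, a chromokinesin, lay at 10.84, 10.88 and 10.49 against 10.25, 10.60 and 10.67, a difference of -0.23 (SE 0.18, adjusted p = 0.56). Both overlapped between genotypes, and a second tested Kif4 probe gave 0.07. Tpx2, which activates Aurka and nucleates spindle microtubules, differed by -0.15 (-0.59 to 0.29). Kif11, the motor that separates the spindle poles, and Hmmr were not well above background on any array. Without knockout replicate 1 the group's median was -0.26 and 4 of the 5 genes were lower. It was -0.18 with wild-type replicates 2 and 3 both left out, and -0.17 with the mast cell marker term, all 5 lower in each.

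**Figure D2:**
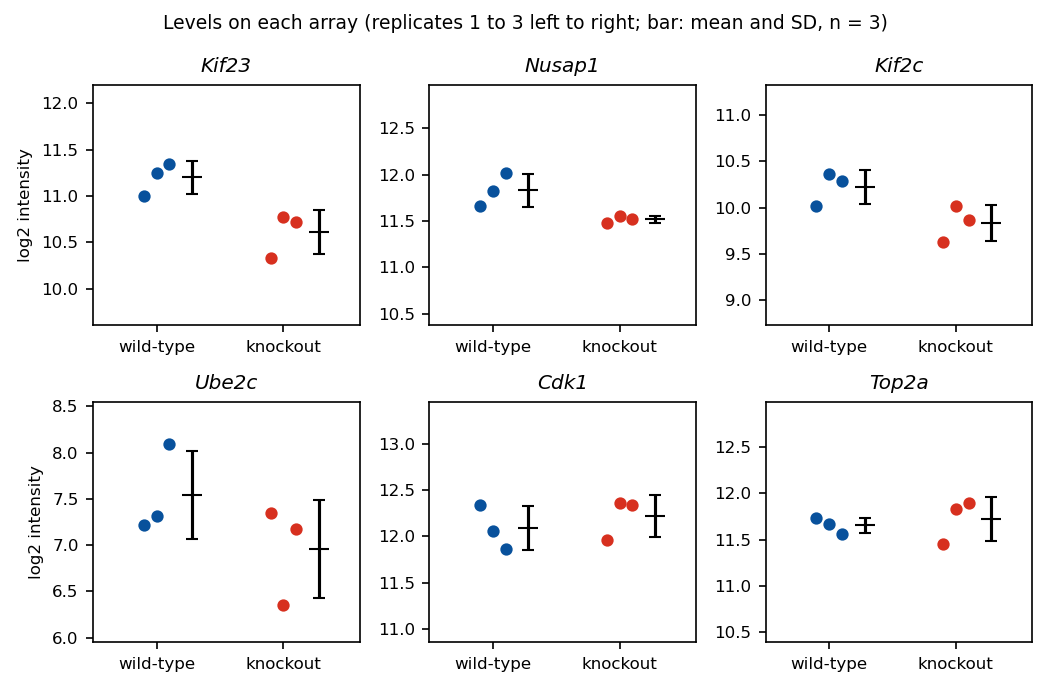
Log2 intensity (vertical axes, all spanning the same range) of 6 of the genes in the wild-type (blue) and the knockout (red), with replicates 1 to 3 from left to right as points and the mean with its SD (n = 3) beside them. The genotypes were apart for Kif23 and Nusap1 and overlapped for Kif2c, Ube2c, Cdk1 and Top2a.

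Among the genes of the central spindle and cytokinesis, Kif23 had the smallest p of all 28. Kif23 encodes MKLP1, the kinesin that with Racgap1 forms the centralspindlin complex at the midzone. It lay at 11.002, 11.25 and 11.35 in the wild-type and at 10.33, 10.78 and 10.72 in the knockout. Every knockout array was below every wild-type array. The level went from 11.20 ± 0.18 to 10.61 ± 0.24 (SD, n = 3 each), 1.51-fold lower, a difference of -0.59 (SE 0.17, 95% interval -0.997 to -0.19, limma adjusted p = 0.32). It therefore did not pass over all probes, and its unadjusted p was 0.010.

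The arrays separated for Kif23 and Nusap1 only after scaling between arrays. In raw intensity Kif23 stood at 2249 ± 106, 2549 ± 119 and 2164 ± 81 in the wild-type and at 1196 ± 174, 2334 ± 96 and 2221 ± 99 in the knockout (bead standard error, 28 to 37 beads). Only knockout replicate 1 was below the wild-type on that scale. Raw Nusap1 stood at 3464, 3687 and 3388 in the wild-type and at 2479, 3860 and 3686 in the knockout, again with knockout replicate 1 alone below the wild-type. Knockout replicates 2 and 3 were the brightest arrays as a whole, with 75th percentiles of raw intensity of 527.9 and 547.4 against 362.3 to 456.9 on the other 4 arrays. With 75th percentile scaling the difference of Kif23 was -0.64, and on the authors' processed values it was -0.53.

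Anln, anillin, which links the actomyosin ring to the membrane, lay at 11.13, 11.24 and 11.40 in the wild-type and at 10.65, 11.20 and 11.18 in the knockout. Knockout replicates 2 and 3 lay inside the wild-type range, and the difference was -0.24 (SE 0.19, adjusted p = 0.55). Prc1, which bundles the antiparallel microtubules of the midzone, lay at 12.84, 12.73 and 12.90 against 12.38, 12.65 and 12.85, a difference of -0.20 (SE 0.16, adjusted p = 0.57). Racgap1, the other subunit of centralspindlin, differed by 0.25 (95% interval -0.36 to 0.85), the opposite sign to Kif23, at dim levels of 6.07 to 7.10. The value of 6.07 was that of wild-type replicate 3. Without that array, or with array weights, all 4 tested genes of this group, Racgap1 included, were lower by mean. Ect2, the exchange factor that activates RhoA at the midzone, had 1 probe, not well above background on any array (log2 4.80 to 5.34). Such a reading does not bound the level of a gene. A Plk1 probe not used here read 4.95 to 5.31, while the chosen Plk1 probe read 11.99 to 12.72. In mouse megakaryocytes loss of Ect2 is known to accompany the polyploid cycles, and its level here cannot be read from this probe. The median of the 4 tested genes was -0.22, and -0.07 without knockout replicate 1.

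Top2a, the topoisomerase that untangles chromosomes before anaphase, lay at 11.73, 11.67 and 11.57 in the wild-type and at 11.45, 11.84 and 11.89 in the knockout. The knockout arrays lay on both sides of the wild-type, and the difference was 0.07 (95% interval -0.30 to 0.45).

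**Figure D3:**
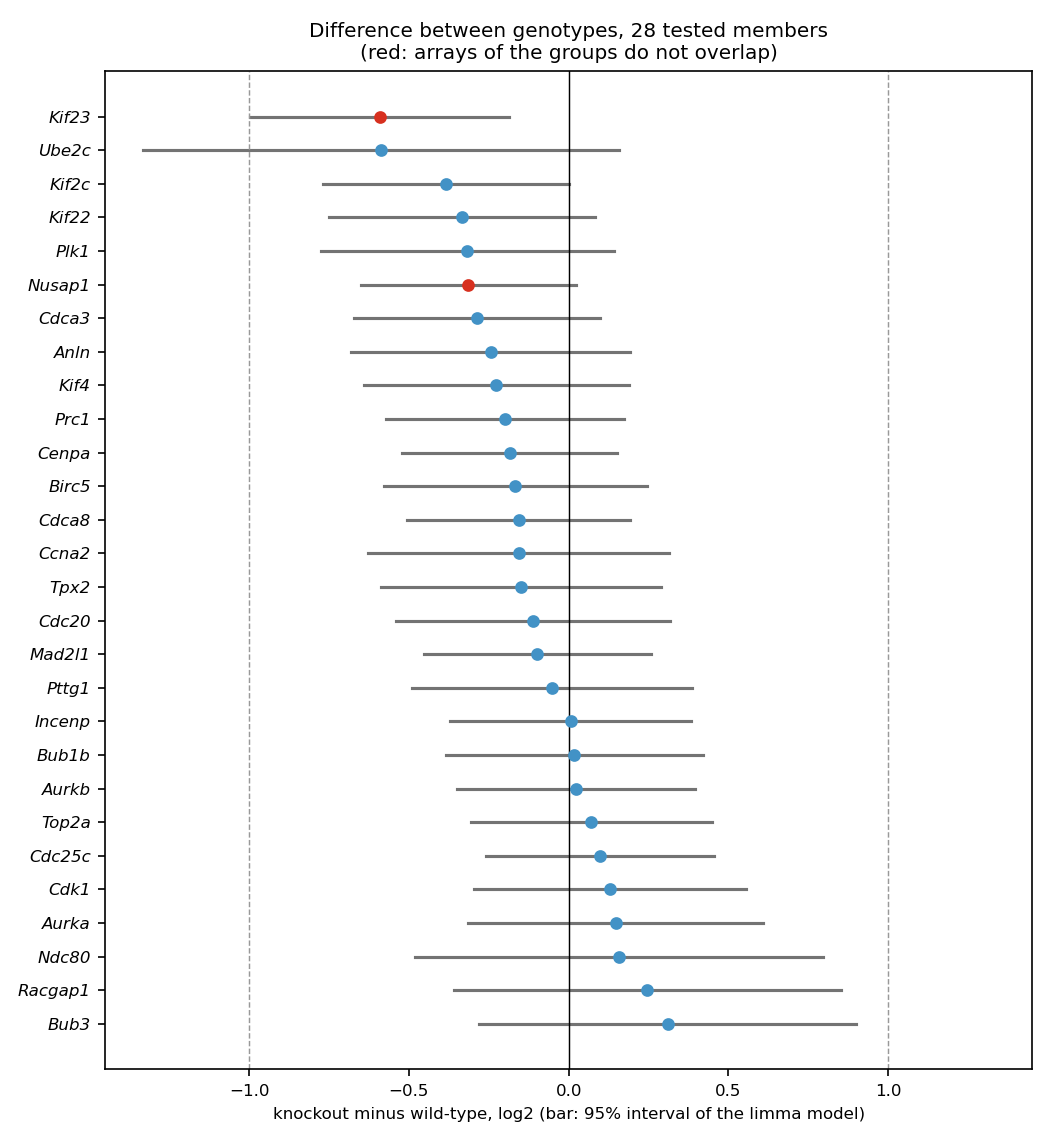
Knockout minus wild-type difference in log2 intensity for the 28 tested genes (points) with the 95% interval of the limma model (bars), ordered by size; red points mark the 2 genes whose arrays did not overlap between genotypes and dashed lines mark 1 log2 unit. All differences lay between -0.59 and 0.31, and the interval of Ube2c alone passed the dashed line.

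Leaving out knockout replicate 1 moved the median of the list more than leaving out any other single array. Averaged over the 28 genes, each taken as the deviation from its own mean, wild-type replicates 1 to 3 lay at 0.07, 0.06 and 0.05 and knockout replicates 1 to 3 at -0.23, -0.019 and 0.07. Knockout replicate 3 was level with the wild-type arrays, knockout replicate 2 slightly below them, and knockout replicate 1 clearly below all others. It was the lowest array for 18 of the 28 genes (64.3%) and the highest for none, and 21.6% of all tested probes had their lowest value there. Without knockout replicate 1 the median difference of the list was -0.016, with 17 of 28 genes lower. With another single array left out it lay between -0.20 (knockout replicate 3 left out) and -0.11 (wild-type replicate 3 left out). With array weights and no array left out the median was -0.045, with 17 genes lower. No gene of the list passed with any 1 array left out. Wild-type replicate 3 was the highest array for 10 of the genes and the lowest for 6, and 21.5% of all tested probes had their highest value there. Racgap1 stood at 6.07 on it against 6.74 to 7.10 on the other 5 arrays, and Ube2c at 8.09 against 6.35 to 7.35.

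Single arrays moved several of the differences given above. Without knockout replicate 1 Cdca3 stood at -0.15, Kif4 at -0.10, Prc1 at -0.08, Anln at -0.06 and Birc5 at -0.03. Without wild-type replicate 3 Kif22 stood at -0.20, Plk1 at -0.18, Cenpa at -0.10 and Bub3 at 0.06. Without wild-type replicate 1 Plk1 stood at -0.52, Bub3 at 0.50 and Cenpa at -0.28.

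Knockout replicate 1 also stood apart in its bead error, and it shared high granulocyte marker levels with wild-type replicates 2 and 3. The standard error over beads was 11.3% of the value in the median of the 28 genes on that array, against 4.65% to 6.33% on the other 5, and 9.53% against 4.59% to 6.35% over all tested probes. The mean log2 level of the 9 tested granulocyte markers was 10.77 on it, 10.49 and 10.69 on wild-type replicates 2 and 3, and between 7.33 and 7.98 on the other 3 arrays. The markers did not all follow that order: S100a8 was highest on knockout replicate 1, at 13.23, and Mpo on wild-type replicate 3, at 14.93. The part of the bead error and of other cells in the low values was not tested.

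**Figure D4:**
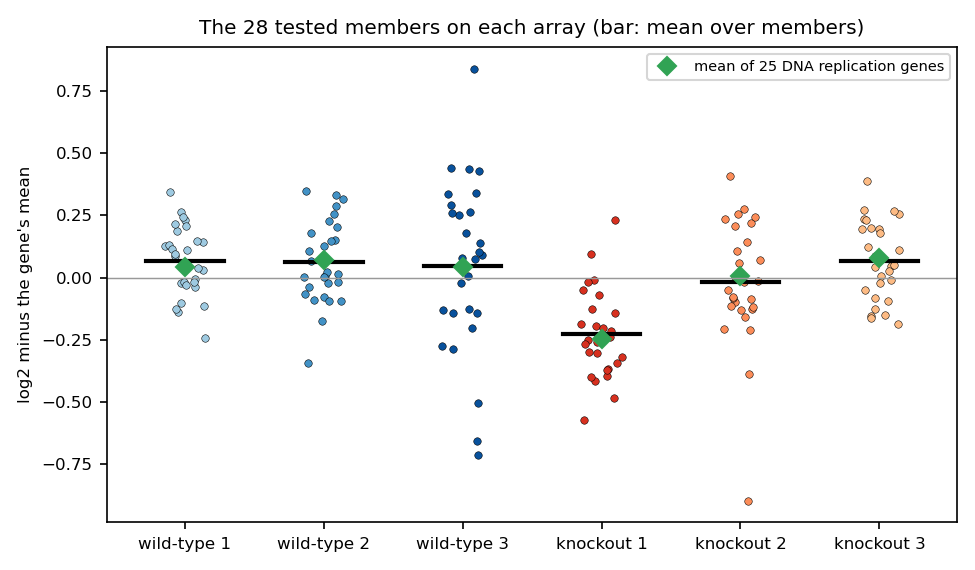
Deviation in log2 intensity of the 28 tested genes from their own means (points) on each of the 6 arrays, with the mean over genes as a bar and the mean of 25 DNA replication genes as a green diamond. Knockout replicate 1 lay at -0.23 for the mitosis genes and -0.24 for the replication genes, and the other 5 arrays between -0.019 and 0.08 for both.

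Genes of DNA replication, the other set that is high in cycling cells, followed the same arrays. Of 25 tested, none passed, 18 were lower by mean and the median was -0.10. Their mean deviation was -0.24 in knockout replicate 1 and 0.01 and 0.08 in knockout replicates 2 and 3, with 14 of the 25 lowest in replicate 1. Pola2 and Pold1, subunits of the replicative polymerases, had the smallest p (-0.53 each, adjusted p = 0.33 and 0.38).

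In the wider machinery of mitosis, no gene passed in either direction in any of 7 further lists. Of 10 tested genes of the anaphase-promoting complex 5 were lower and 5 higher (median 0.03), with the subunit Cdc26 at -0.50 and Cdc16 at 0.36. Of 17 condensin and cohesin genes, which compact chromosomes and hold sister chromatids together, 11 were lower (median -0.13), with the condensin subunits Ncaph at -0.53 and Ncapd3 at -0.33 (adjusted p = 0.33 and 0.36). Of 20 other kinetochore genes 12 were lower (median -0.09), with Cenpp at -0.43 and Mad1l1, the checkpoint partner of Mad2, at 0.54. Of 17 centrosome and spindle pole genes 8 were lower (median 0.01). Haus7, of the augmin complex that branches spindle microtubules, stood at 0.59 but was detected on 1 of 3 wild-type arrays and entered the test through the knockout alone. Dlgap5, which stabilizes kinetochore fibres, stood at -0.75 (adjusted p = 0.33). Of 12 contractile ring and abscission genes 4 were lower (median 0.08). Cep55, which brings the abscission machinery to the midbody, stood at -0.61 (SE 0.20, adjusted p = 0.33), and Tsg101, part of that machinery, at 0.40.

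The lists of regulators gave the same count. Of 12 tested regulators of mitotic transcription 5 were lower (median 0.08), with the E2F genes E2f3 at -0.32 and E2f2 at -0.36 (adjusted p = 0.35 each). E2f1 went the other way, at 0.43 (adjusted p = 0.35). Foxm1 and Mybl2, the factors tied to the CHR, differed by 0.34 and 0.14 (adjusted p = 0.58 and 0.76). Of the NF-Y genes, Nfya differed by 0.88 and Nfyb by -0.05 (adjusted p = 0.38 and 0.93). Nfya was detected on 2 of 3 wild-type arrays and entered the test through the knockout alone. E2f1, Foxm1, Mybl2 and the NF-Y genes are named here after their values were seen. Of 18 cyclins, cyclin-dependent kinases and their inhibitors 11 were lower (median -0.03), and 8 had an unadjusted p under 0.05, against 13.7% of all tested probes. Of the 8, 5 were higher, named here after their values were seen: the inhibitor genes Cdkn1a (0.43) and Cdkn2d (0.60), Ccnd3 (0.60), Cdk6 (0.45) and Fbxw7 (0.53). Another inhibitor gene among the 8, Cdkn1c, was lower, at -0.48 (adjusted p = 0.35). Cdc25a, the phosphatase of the G1 to S step, stood at -0.53 and the cyclin E gene Ccne2 at -0.70 (adjusted p = 0.32 each).

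**Figure D5:**
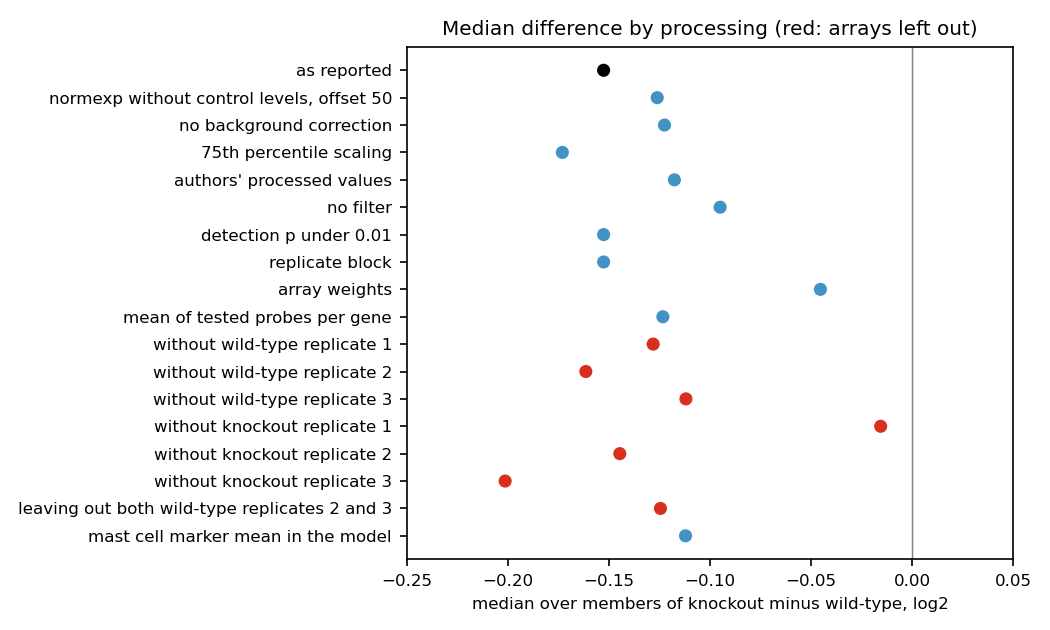
Median over the tested mitosis and cytokinesis genes of the knockout minus wild-type difference (log2, horizontal axis) as reported (black), with other processing (blue) and with arrays left out (red). All 18 medians were below 0, from -0.20 without knockout replicate 3 to -0.016 without knockout replicate 1.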

How the data were processed

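Per the file headers, the authors deposited for each of 6 arrays (3 wild-type, 3 knockout) a raw intensity per probe, the standard error of that intensity over beads, the bead count and a detection p-value. The authors' processed values, used as an alternative, were on a log2-like scale with the same median (8.22) in every column, and their transform is not given in the sources used here. BeadStudio 3.2 and lumi are named per the submitters' processing notes, without roles.

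With R 4.3.3 and limma 3.58.1, intensities were background-corrected by normexp (offset 16), taking the negative control distribution from the detection p-values, then quantile normalized and put on the log2 scale (neqc). Testing required a detection p below 0.05 on each of the 3 arrays of either genotype and kept 9403 of 24611 probes. "Not well above background" means that it failed this filter. limma's linear model with eBayes compared the genotypes, two-sided, with Benjamini-Hochberg adjustment over all tested probes, and the code was tested on simulated data. Symbols came from the platform annotation (20983 probes with 1 symbol, 1 with several, 3627 with none). Of several probes of a gene the brightest by mean over all arrays stood for it, chosen without regard to the filter. Of the genes, 11 had several probes, 4 of them several tested ones. Values on every array are given for Srf, the 12 tested genes with the smallest p and the brightest gene of each role, and for 1 further gene, Cdk1, chosen after its values were seen. Of each further list the 2 genes with the smallest p are named. The members, lists and rules were chosen with earlier results of these data known. Promoter windows were the one listed first for each gene. Array number limits the precision. Same-numbered replicates were checked for pairing through the correlation of their deviations from the group means (-0.27, -0.13 and -0.09), and were not treated as pairs. Alternatives covered background correction, scaling, filters, array weights, the probe rule, a replicate block, and arrays left out.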

Additional observations from a re-analysis of the deposited data

Results flagged for a closer look

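Probes of 2 of the genes lay outside the test but were above background on 1 knockout array and on no wild-type array. The Ttk probe reached log2 6.45 in knockout replicate 2, against at most 5.40 in the wild-type. An untested probe of Cdc25c reached 6.13 on the same array, against at most 5.70. Of the 17 untested probes of the list these were 2, and 6.44% of all 15208 untested probes showed the same pattern.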

How the results depend on the processing

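No gene of the list passed under the alternatives other than array weights, which called 2, Kif23 (-0.56, adjusted p = 0.019) and Kif2c (-0.43, adjusted p = 0.038). That setting gave wild-type replicate 2 a weight of 5.91 and wild-type replicate 1 a weight of 0.32, and it called 1955 of all probes (20.8%) in place of 15. Over all alternatives the adjusted p of Kif23 ran from 0.019 to 1. All probes called numbered 9 with no filter, 6 with a replicate block, and 7 to 839 with 1 array left out (839 on dropping wild-type replicate 1, 8 on dropping knockout replicate 1, and 7 on dropping either knockout replicate 2, knockout replicate 3 or the wild-type array numbered 2). The replicate block gave no call in the list, 0 of 28. With 1 array left out the list had 0 calls throughout, and its median ran from -0.20 to -0.016, the latter without knockout replicate 1. Of the genes named by the rule, with 75th percentile scaling Bub1b (-0.029) and Top2a (-0.0002) changed sign, and with 1 array left out Bub1b ran from -0.12 to 0.15 and Top2a from -0.012 to 0.21. Settings chosen after seeing the data were leaving out wild-type replicates 2 and 3 together, where among the same genes Plk1 (0.083), Cenpa (0.010), Bub3 (-0.076), Bub1b (-0.10) and Top2a (-0.0051) changed sign, and a model term for the mean of the mast cell markers, where Plk1 (0.0015) and Bub1b (-0.076) did. Other genes of the list turned as well: it had 22 lower and 6 higher with 75th percentile scaling, and 21 lower and 7 higher, and 19 lower and 9 higher, in the settings chosen later, against 18 and 10. The list's medians were -0.12 and -0.11 in those later settings, with no calls under the model term. In the same order Kif23 stood at -0.39 and -0.42, Kif2c at -0.18 and -0.22, and Nusap1 at -0.14 and -0.17. Kif22 stood at -0.05 and -0.10, and Ube2c at -0.26 and -0.30. Not all differences shrank: Kif4 stood at -0.33 and -0.30, and Birc5 at -0.22 and -0.17. The causes were not tested. Intervals of this width leave differences under about 0.41 unresolved.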
